A study of Mus musculus with 12 samples.

Results

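Cytosolic ribosomal protein genes encode the protein subunits of the ribosome that translates nuclear mRNA. They were taken here as every gene symbol with Rpl or Rps followed by a digit, which gave 97 of the 32285 genes counted in droplet RNA libraries of mouse antibody-secreting cells (ASCs). By their names, 73 of the 97 are core subunit genes, 43 of the large subunit (Rpl) and 30 of the small one (Rps). Another 8 are paralogs of a core gene, 5 are pseudogenes by symbol, and 11 carry the prefix without encoding a ribosomal protein. The 11 are the S6 kinase genes Rps6ka1 to Rps6ka6, Rps6kb1, Rps6kb2, Rps6kc1 and Rps6kl1, and Rps19bp1, whose product binds Rps19. The symbol rule misses 7 further core genes, the stalk genes Rplp0, Rplp1 and Rplp2 among them, which were followed as a separate list. The main measure was the share of unique molecular identifiers (UMIs, each standing for 1 captured mRNA molecule) outside immunoglobulin genes that the 97 genes held in a barcode or a library. Of 39949 barcodes called as cells, 36838 had at least 500 such UMIs and were kept.

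The ASCs came from bone marrow, from spleen and from thymus of C57BL/6 mice of both sexes, aged 3 months, that carry Prdm1-eYFP, a yellow fluorescent reporter of the ASC transcription factor Prdm1 (Blimp-1). All 6 groups carried the reporter, and each sort pooled 3 mice and gated B220+/-, CD138HI, IgD-, CD90.2-, reporter-positive cells. There was 1 gene expression library and 1 B cell receptor (VDJ) library for each sex and tissue, which gives 2 gene expression libraries to each tissue and 3 to each sex. Whether the same mice gave all 3 tissues is not in the labels, and p-values therefore measure only the spread among these libraries.

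Ribosomal proteins are made in balanced amounts, and their mRNAs are among the most abundant in most cells. Each begins with a terminal oligopyrimidine tract, a run of C and T letters through which mTOR signalling and the binding protein Larp1 set how much of the mRNA is translated and how much is stored. ASCs carry ribosomes on a wide rough endoplasmic reticulum, where immunoglobulin chains are made for secretion.

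Windows at the transcription starts of these genes were searched for exact matches to short pyrimidine motifs. The windows below cover 15 bases before and 15 bases from the RefSeq transcription start (GRCm38.p6, 5′ to 3′ on the gene's strand) and are shown because the results for isotype and for the make-up of the mRNA pool turn on these genes. Capitals mark a match to CTTTCC or CTTTTC, the motifs searched on both strands, which can overlap each other by 1 letter.
Rps12, chr10:23787195-23787224, minus strand: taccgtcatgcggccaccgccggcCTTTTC
Rps27, chr3:90213634-90213663, minus strand: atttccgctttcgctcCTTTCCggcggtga
Rpl38, chr11:114668565-114668594, plus strand: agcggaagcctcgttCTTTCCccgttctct
Rps24, chr14:24490663-24490692, plus strand: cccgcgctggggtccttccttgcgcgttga
Rpl37, chr15:5116598-5116627, plus strand: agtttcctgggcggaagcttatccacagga
Rps18, chr17:33955651-33955680, minus strand: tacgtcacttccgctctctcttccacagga
Rps28, chr17:33824548-33824577, minus strand: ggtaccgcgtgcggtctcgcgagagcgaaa
Rps12, Rps27 and Rpl38 each hold 1 match, and Rps24, Rpl37, Rps18 and Rps28 hold neither exact motif in the window. The windows of Rps24 and Rps18 do hold other runs of C and T across the start. Lack of a match is therefore not lack of a pyrimidine tract. RefSeq starts matched 54 of the 73 core genes by symbol, and 15 of the 54 (27.8%) held either motif, against 5.39% of all 27025 symbols in the same table. CTTTCC was found for 9 core genes and in 3.14% of all symbols, CTTTTC for 6 core genes and in 2.35%. A match is a description of the letters at an annotated start and says nothing about the start used in these cells.

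Facts of the libraries bear on what follows. The filtered lists summed to 1367972 UMIs in female thymus and 4109616 in male thymus, against 19918193 to 85749785 in the other 4 libraries, and kept barcodes numbered 474 and 740 in thymus against 3706 to 15567. Between 24 and 247 barcodes of the filtered lists occurred in both members of a library pair. In the gene expression libraries the sex labels held: Xist, the X-inactivation RNA, stood at 530 to 1052 CPM (UMIs of the dominant barcodes defined below, after TMM scaling) in the 3 female libraries and at 0.31 to 1.21 in the male ones. The VDJ tables did not follow their labels. The table labelled female bone marrow shared 38 of its 1778 barcodes with the female bone marrow gene expression library and 1718 with the male one, and each of the other 5 tables likewise shared more barcodes with the library of the other sex of its tissue than with any other. The VDJ tables were therefore used for no comparison between sexes or tissues. Barcodes with and without an assembled receptor are compared within libraries only, under the other observations at the end.

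An ASC normally carries 1 light chain, so barcodes were put into classes by the share that the leading Igkv or Iglv gene took of all light-chain V UMIs. It was at least 0.8 in 3820 barcodes, called dominant here, and under 0.5 in 27624, called mixed; the rest lay between, apart from 1 barcode with under 20 such UMIs. The classes are ranges of a score, with 1622 barcodes within 0.05 of the upper limit and 2327 within 0.05 of the lower one. Summed ASC markers, a list of 12 genes with Jchain, Mzb1 and Xbp1, held 7.59% to 14.5% of UMIs outside immunoglobulin genes in the dominant barcodes of a library and 3.62% to 6.47% in the mixed ones. All 12 were detected in every library. Jchain made up most of the dominant sum, at 49245 to 155037 CPM against 2497 to 13656 for Mzb1. Irf4, also on the list, was higher in dominant than in mixed barcodes in 1 of 6 libraries. B cell markers (12 genes) summed to 1.64% to 1.96% in the dominant barcodes of a library and 0.469% to 1.18% in the mixed ones. T cell markers (12 genes) summed to at most 0.00833% of dominant UMIs, the thymus libraries included. Neutrophil markers (11 genes, Mmp8 and Retnlg at 0) reached 0.00718% in dominant barcodes, but 1.52% and 2.60% in the mixed barcodes of female and male bone marrow.

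All 73 core genes were detected in the dominant barcodes of every library, and a few genes of the rule were nearly or fully silent. Rpl10l, Rps6ka6, Rpl36-ps4 and Rpl9-ps1 had no UMI in any dominant barcode. Rpl39l and Rpl3l, paralogs known from testis and from muscle, had 1 UMI each. Rps24 held the most UMIs, a mean of 5.05% of all core UMIs, where a UMI counts a molecule once whatever its length.

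Paralogs differed widely in their level relative to their partner. Rpl36al had more UMIs than Rpl36a in every library, at 220% to 316% of it, the highest in female thymus (259 against 82 UMIs). Rpl7l1 stood at 4.38% to 10.4% of Rpl7, the highest again in female thymus (8 against 77 UMIs), and Rpl22l1 at 14.2% to 19.9% of Rpl22. Rps27l, a paralog that p53 induces, stood at 23.7% and 35.7% of Rps27 for bone marrow of females and males, 47.1% and 43.7% for spleen, 31.5% and 24.7% for thymus. Rps27rt, a near copy of Rps27, stood at 1.95% to 5.40% outside female thymus, where it had 1 UMI against 149. Reads of such near copies, and of the pseudogenes Rpl9-ps6 and Rpl10-ps3, can be split or exchanged in counting, and these values are uncertain to that extent.

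Ribosomal protein mRNA took up more of the transcriptome in dominant than in mixed barcodes. With all UMIs summed, the share in dominant barcodes was 15.5% and 13.7% for bone marrow of females and males, 16.3% and 13.8% for spleen, 5.88% and 11.4% for thymus. In mixed barcodes it was 5.04% and 3.74%, 7.22% and 4.81%, and 4.43% and 3.54%, in the same order. The dominant share was the higher one in 6 of 6 libraries, and female thymus stood apart with the smallest gap. The mean over libraries was 12.8% ± 3.78 (SD, n = 6) in dominant and 4.80% ± 1.32 (SD, n = 6) in mixed barcodes, a difference of 7.99 percentage points ± 3.32 (SD, n = 6). A score over the members was given no test.

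**Figure D1:**
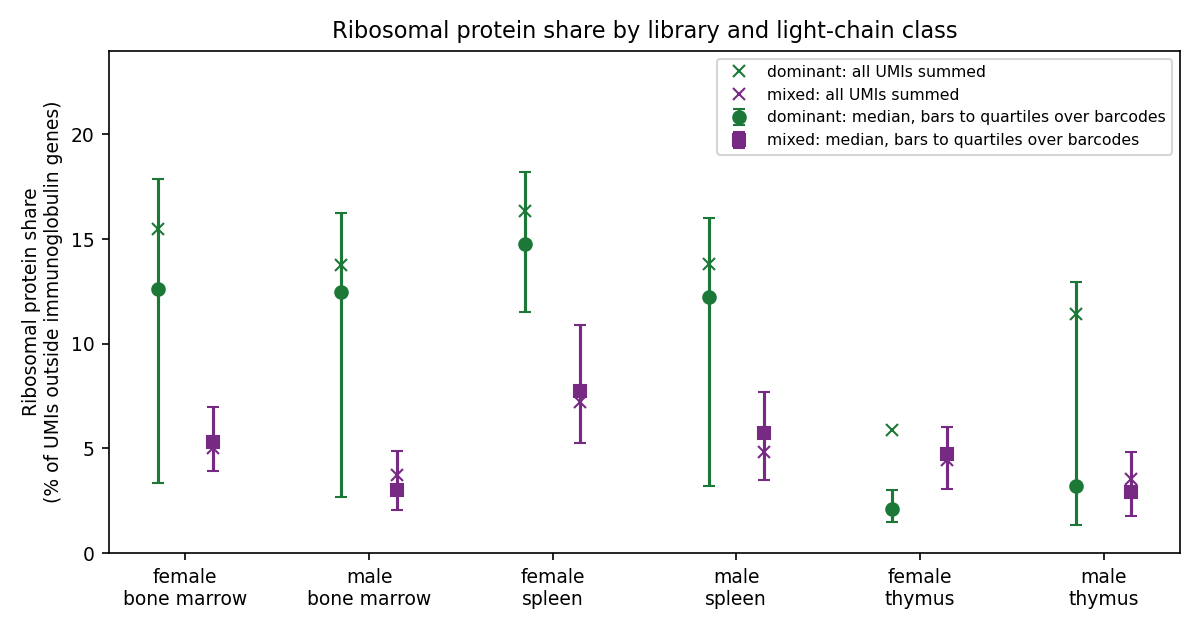
Ribosomal protein share of UMIs outside immunoglobulin genes (y axis, %) by library (x axis) in dominant (green circles) and mixed (purple squares) barcodes; symbols are medians over barcodes, bars reach to the quartiles, and crosses give the share with all UMIs summed. The crosses of dominant barcodes lie above those of mixed ones in all 6 libraries, while the median of female thymus is 2.11% in dominant and 4.75% in mixed barcodes.

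The median over barcodes gave the same order in 5 of 6 libraries. In dominant barcodes it was 12.6% and 12.5% for bone marrow of females and males, 14.8% and 12.2% for spleen, 2.11% and 3.21% for thymus. In mixed barcodes it was 5.32% and 3.02%, 7.75% and 5.72%, and 4.75% and 2.93%. In female thymus the median dominant barcode was thus below the median mixed one, although the sum was above. Dominant barcodes were deeper, with a median of 2035 to 7408 UMIs outside immunoglobulin genes per library against 785.5 to 1397 in mixed ones. Barcodes outside the filtered list with at most 100 UMIs, a measure of free RNA, held 11.0% to 12.9% ribosomal protein UMIs, within the range of the dominant sums and above every mixed value.

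Gene by gene, every core subunit gene rose in dominant over mixed barcodes. In edgeR's quasi-likelihood test on sums per library and class, with library as a block and Benjamini-Hochberg adjustment over 10075 genes, 88 of 89 members tested passed, 82 higher and 6 lower. Over all genes 73.4% passed in either direction, 33.2% as higher and 40.2% as lower in dominant barcodes. The 73 core genes were all among the higher ones, with a median log2 fold change of 1.61 (1.60 over large-subunit and 1.67 over small-subunit genes), against -0.11 over all genes tested. The range ran from 0.92 ± 0.22 (SE) for Rpl4 to 2.01 ± 0.23 for Rpl39.

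The 5 members with the smallest p were 2 paralogs, a pseudogene and 2 core genes. Rps27l (chromosome 9, 66946086 to 66949516, plus strand; this and the other gene positions are GENCODE vM21 on GRCm38) stood at 197 to 847 CPM in dominant sums (median 462) and at 64.8 to 204 in mixed ones (median 102). Its dominant value was the higher in 6 of 6 libraries, by 2.02 ± 0.16 on the log2 scale (edgeR adjusted p = 8.9e-10). Rpl36 (chromosome 17, 56613416 to 56614243, plus strand) stood at 590 to 2351 (median 1648) in dominant and 222 to 638 (median 336) in mixed sums, a log2 difference of 2.01 ± 0.22 (edgeR adjusted p = 3.0e-08). Rps25 (chromosome 9, 44407139 to 44410427, plus strand), a small-subunit protein used by viral internal ribosome entry sites, stood at 188 to 954 against 76.2 to 272, a log2 difference of 1.83 ± 0.20 (edgeR adjusted p = 3.2e-08). For each of these genes the dominant and mixed ranges overlap, with the dominant sum of female thymus lowest. Rpl22l1, the paralog of Rpl22, rose by 1.57 ± 0.15, and Rpl9-ps6 by 1.86 ± 0.17 at a low level of 4.18 to 44.4 against 2.45 to 13.4 CPM.

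The 6 members that fell are kinases, not ribosomal proteins. Rps6ka2 and Rps6ka3 encode S6 kinases of the p90 family and Rps6ka5 a related kinase, all downstream of MAP kinases, and they fell by 0.98 ± 0.15, 0.94 ± 0.14 and 1.0 ± 0.19 on the log2 scale. Rps6kb1 and Rps6kb2, the mTOR-dependent kinases of Rps6, fell by 0.45 ± 0.11 and 0.34 ± 0.11, and Rps6kc1 by 0.74. Of the other genes with the prefix, Rps19bp1 rose by 1.0 and Rps6ka4 by 0.65. The symbol rule therefore joined genes that moved in opposite directions.

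The rise of the core genes was least in female thymus. The median log2 ratio of dominant to mixed over the 73 core genes was 1.51 and 2.25 for bone marrow of females and males, 1.68 and 1.86 for spleen, 0.19 for female thymus and 2.07 for male thymus. In 5 libraries all 73 core genes were above, and in female thymus 48 of 73. With female thymus left out the median of the fit was 1.87, and 82 members were called higher, where 3516 of 10405 genes were.

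Genes that work beside the ribosomal proteins moved to different degrees in the same contrast, and their counts are to be read against the 33.2% higher and 40.2% lower of all genes. All 7 core genes outside the symbol rule rose (median log2 fold change 1.65), among them the stalk genes Rplp0, Rplp1 and Rplp2 by 1.65 to 1.71. Of the 9 genes on the elongation list, Tpt1 included, 8 rose and none fell (median 1.17). The elongation factor gene Eef1b2 stood at 1.33 ± 0.23 and Tpt1 at 1.52 ± 0.28. Mitochondrial ribosomal protein genes (Mrpl and Mrps) rose in 75 of 78 cases and fell in none (median 1.10). Initiation factors were divided, with 17 of 28 higher and 3 lower: the eIF3 subunit gene Eif3i rose by 1.78 ± 0.16. Of 32 ribosome biogenesis genes 13 rose and 7 fell, from Nop10 at 1.67 ± 0.12, part of the small RNA particles that modify ribosomal RNA, to the RNA polymerase I subunit Polr1a at -0.89 ± 0.13. Of 19 mTOR and translation regulators 2 rose and 11 fell, Rictor by 1.59 ± 0.11, while Eif4ebp1, the cap-binding inhibitor, rose by 1.22 ± 0.14. The lists that contain the translation machinery itself thus lay above the all-gene median of -0.11, and the regulators (median -0.41) below it.

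Other measures also differed between the classes, some higher and some lower in dominant barcodes, and their part in the rise of the core genes was not tested. The nuclear RNAs Malat1, Neat1, Kcnq1ot1 and Mir155hg all fell (4 of 4 tested, median -1.37), and 3 of 3 loci that overlap ribosomal RNA fell; the latter held 7.22% to 32.9% of mixed and 1.63% to 3.86% of dominant UMIs. Of 12 ASC markers 10 rose, with Jchain at 49245 to 155037 CPM in dominant and 20352 to 45669 in mixed sums. Of 30 endoplasmic reticulum and secretory genes 21 rose and none fell, led by the translocon gene Sec61g at 2.16 ± 0.22. Of 15 cycling genes 11 rose and 3 fell (median 0.66). Of 8 macrophage markers tested 6 fell and 1 rose. Of 9 B cell markers tested 5 rose and 2 fell (median 0.45). Cd22 and Bach2 fell by 2.61 and 1.62, and H2-Aa and Cd79b were among those that rose, by 1.16 and 1.12. With Malat1 and the ribosomal RNA loci left out of the denominator, the mean mixed share was 6.45% and the mean dominant share 13.5%, while female thymus held 6.53% in dominant and 6.39% in mixed barcodes.

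Within the dominant class the ribosomal protein share ran from a low to a high range, with 2.41% to 11.2% of the barcodes of a library between them. A share of 10% or more was held by 382 of 670 dominant barcodes in female and 540 of 881 in male bone marrow. It was held by 1303 of 1544 and 286 of 489 in spleen, and by 14 of 83 and 58 of 153 in thymus. Shares under 5% numbered 244 and 272, 96 and 148, and 67 and 81 in the same order, which left 2 to 145 barcodes per library between 5% and 10%. In female spleen alone the middle range, with 145 barcodes, held more than the low one. Female spleen had the largest fraction in the high range (84.4%) and female thymus the smallest (16.9%). As the ranges were set on the share itself, what differs between them is described without a test.

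**Figure D2:**
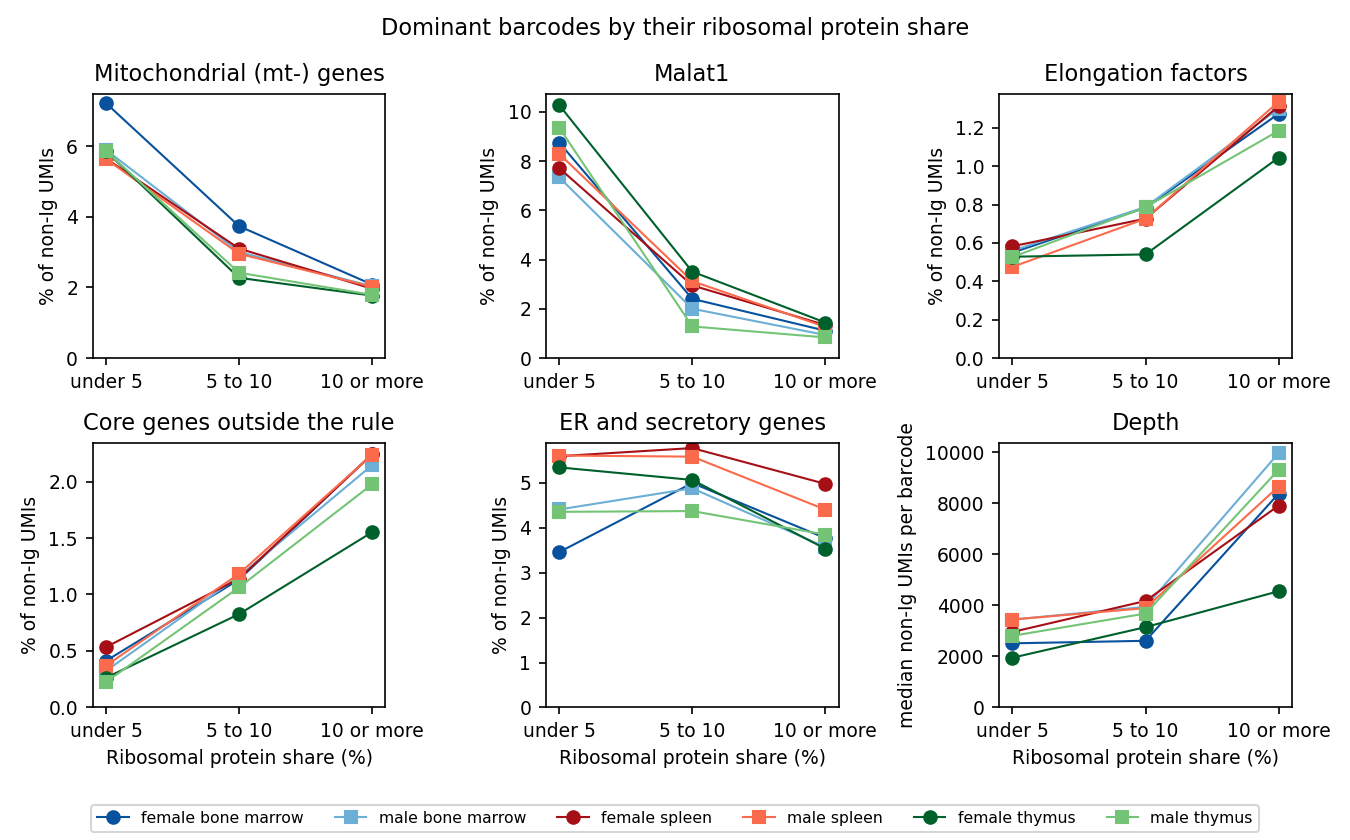
Dominant barcodes of each library (lines) by their ribosomal protein share (x axis, under 5%, 5 to 10%, 10% or more): percent of UMIs outside immunoglobulin genes held by mt- genes, Malat1, the elongation list (Tpt1 included), core genes outside the symbol rule and secretory genes, and median UMIs per barcode. Malat1 holds 7.34% to 10.3% in the low and 0.838% to 1.44% in the high range, while secretory genes lie at 3.46% to 5.61% and 3.54% to 4.98%, lower in the high range in 5 of 6 libraries.

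Barcodes of the low range had fewer UMIs, with a median of 1949 to 3446 per library against 4554.5 to 9969 in the high range. Malat1, which stays in the nucleus, held 7.34% to 10.3% of UMIs outside immunoglobulin genes in the low and 0.838% to 1.44% in the high range, without overlap between libraries. The median mitochondrial (mt-) share was 5.36% to 7.27% against 1.73% to 2.07%. The elongation list, Tpt1 included, held 0.475% to 0.582% against 1.04% to 1.34%. The 7 core genes outside the rule held 0.225% to 0.534% against 1.55% to 2.24%, so both lists followed the members. Secretory genes, at 3.46% to 5.61% in the low and 3.54% to 4.98% in the high range, were lower in the high range in 5 of 6 libraries, from 5.35% to 3.54% in female thymus, and higher in female bone marrow (3.46% to 3.77%). Immunoglobulin genes held 44.5% to 66.2% and 56.9% to 61.2% of all UMIs and were higher in the high range outside the spleen libraries. ASC markers held 3.17% to 8.38% in the low and 13.3% to 16.8% in the high range.

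Across dominant barcodes the share ran against the nuclear and mitochondrial shares and with depth. Spearman's rho of the ribosomal protein share per barcode was -0.45 to -0.78 with Malat1, -0.43 to -0.75 with the mt- share, 0.33 to 0.75 with UMIs and 0.14 to 0.67 with the share of the leading light-chain gene over the 6 libraries (83 to 1544 barcodes each). In mixed barcodes rho with UMIs had the opposite sign, -0.28 to -0.76. These points share a library and a denominator, and the shares are bound to trade off against each other. Below a mt- share of 2.5% the median ribosomal protein share of dominant barcodes was 17.6% and 15.1% for bone marrow of females and males, 15.9% and 15.2% for spleen, 13.1% and 13.0% for thymus (16 and 60 barcodes). Between a mt- share of 5% and 10% it was 2.88% and 1.95%, 4.76% and 2.63%, and 1.81% and 1.31%. A limit on the mt- share bears on the ribosomal protein share through their common denominator, so the bins are a description.

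By the leading heavy-chain constant gene, IgG barcodes had a lower median ribosomal protein share than IgM barcodes in 6 of 6 libraries. Dominant barcodes led by Ighm numbered 3016, by an Ighg gene 338 and by Igha 174. The median share with IgM, IgG and IgA was 15.6%, 11.8% and 11.4% in female spleen and 14.1%, 10.1% and 4.76% in female bone marrow. It was 12.7%, 8.12% and 10.4% in male bone marrow and 12.7% and 7.91% with IgM and IgG in male spleen, where 4 barcodes were led by Igha. Medians in thymus, with 14 to 20 IgG or IgA barcodes per library, were 2.14%, 1.50% and 2.95% in females and 4.65%, 1.80% and 1.86% in males. In female bone marrow the IgA sum lay closer to the IgM sum than the IgA median did to the IgM median. The median log2 ratio of the IgA to the IgM sum over its core genes was -0.10. With barcodes under 3% Malat1 the IgA and IgM medians of this library were 15.9% and 16.9%. Among barcodes of the high range the IgM median stood above the IgG one in the bone marrow and spleen libraries. The medians were 17.3% and 14.9%, 15.3% and 12.8%, 16.3% and 12.8%, and 15.5% and 14.2% (female and male bone marrow, female and male spleen). That range was set on this same share, so these medians are a description and no separate support. Thymus medians within the range are not given here.

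In the test by gene, 29 core genes fell in IgG against IgM sums and none rose. Of 5158 genes tested with library as a block, 11.0% passed in either direction and 6.05% as lower in IgG, against 30 of 83 members in either direction and 29 as lower. The 29 are 17 large-subunit and 12 small-subunit genes, and the median log2 fold change of all 73 core genes was -0.27, against 0.02 over all genes. The per-library median of core genes was -0.36 and -0.41 for bone marrow of females and males, -0.29 and -0.33 for spleen and 0.09 for male thymus, so male thymus did not share the direction. Without male thymus 56 of 83 members were called lower, where 6.82% of all genes were. Without female spleen it was 5 of 83 (3.44% of all genes), without female bone marrow 6 of 85 (3.67%), without male spleen 11 of 83 (4.71%) and without male bone marrow 13 of 85 (4.91%). The core median was -0.28 without female spleen and -0.24 without female bone marrow, about as in the fit of all libraries. With barcodes under 3% Malat1 only, 10 of 86 members were called lower, where 2.17% of all genes were, and the core median was -0.35. Only female bone marrow (32) and female spleen (158) then held the 20 IgG barcodes that a sum needed. Male thymus, with 10, was not part of that comparison.

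Rps12 (chromosome 10, 23785183 to 23787275, minus strand), a small-subunit protein, fell the most among the core genes. It stood at 2328, 2142, 2168, 1745 and 1217 CPM in the IgM sums of female and male bone marrow, female and male spleen and male thymus. In the IgG sums of the same libraries it stood at 1176, 973, 1386, 1068 and 1093. It was lower with IgG in 5 of 5 libraries, by 0.74 ± 0.11 on the log2 scale (edgeR adjusted p = 8.8e-05), and the difference in male thymus was the smallest. Rpl30 (chromosome 15, 34440505 to 34443640, minus strand), a large-subunit protein, stood at 1124 to 1704 with IgG and 1424 to 2345 with IgM in these libraries and fell by 0.50 ± 0.09 (edgeR adjusted p = 6.9e-04). Rpl37, Rps24 and Rpl9 fell by 0.49 ± 0.10, 0.50 ± 0.10 and 0.43 ± 0.09, each in 5 of 5 libraries. The IgM sum of female thymus, which has no IgG sum to set against it, was below all of these, with Rps12 at 385.

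**Figure D3:**
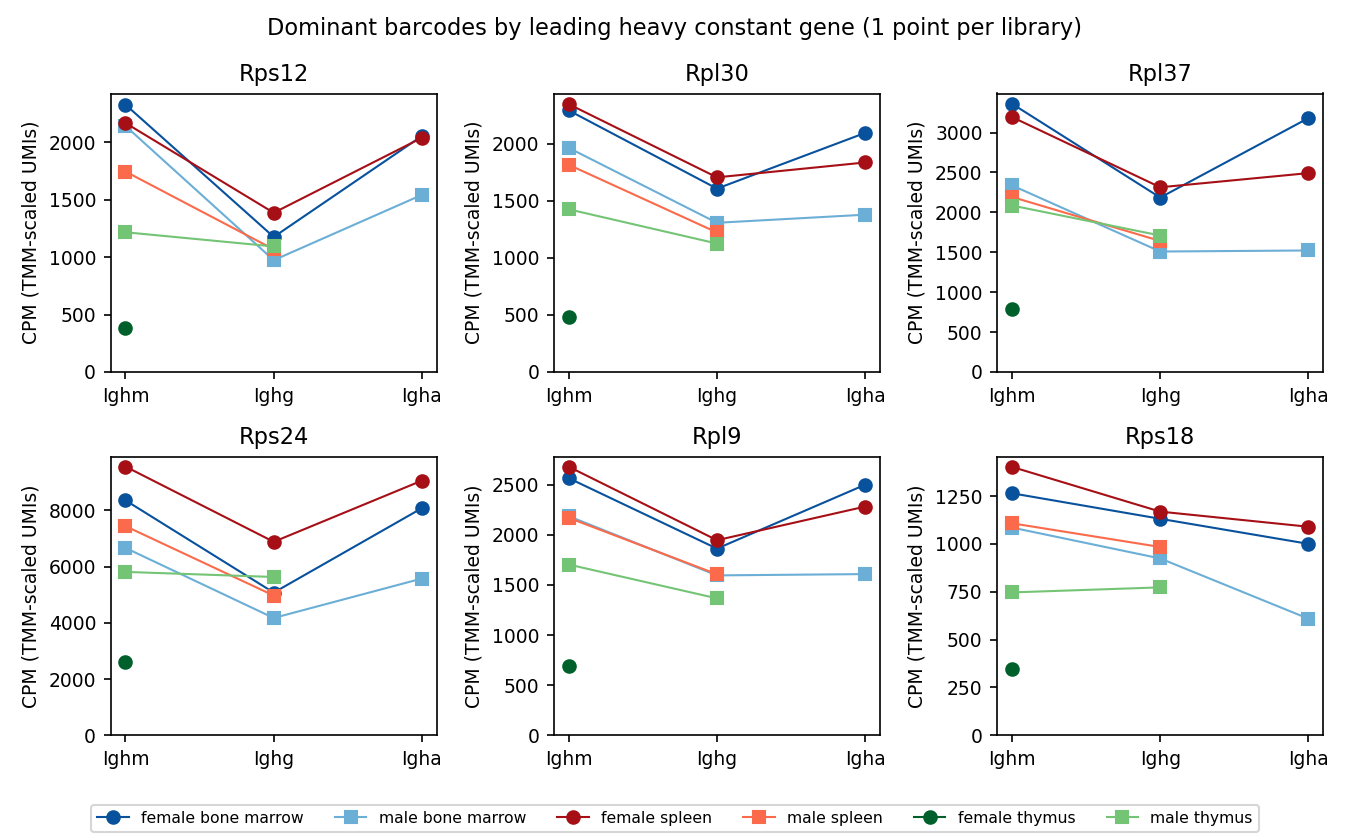
CPM (y axis) of 6 core genes in sums of dominant barcodes led by Ighm, Ighg or Igha (x axis), 1 point per library, lines joining the isotypes of a library. Rps12 falls from 2328 to 1176 in female bone marrow and from 1217 to 1093 in male thymus, and female thymus has an IgM point only.

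Rps6kb1, the S6 kinase gene, moved the other way. It stood at 77.1, 148, 103, 79.1 and 117 CPM with IgG in the 5 libraries and at 63.8, 57.2, 55.4, 51.7 and 48.2 with IgM. It rose in 5 of 5 by 0.85 ± 0.16 (edgeR adjusted p = 7.4e-04), and it was the member that rose, where 4.98% of all genes did. Of the 7 core genes outside the rule Fau, Rpsa and Rplp1 fell by 0.45, 0.39 and 0.36, and Rplp0 stood at -0.11 ± 0.09. The elongation factor genes Eef2 and Eef1a1 fell by 0.44 ± 0.10 and 0.38 ± 0.11, 2 of 8 tested on the elongation list. The initiation factor genes Eif4a2, Eif3f, Eif1 and Eif4b fell, 4 of 28.

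Other groups that moved in IgG against IgM included markers of state and identity, and their part in the difference was not tested. Their counts are to be read against 4.98% of all genes higher and 6.05% lower in IgG. Of 12 cycling genes 4 rose (list median 0.87), with Cdk1 at 1.08 ± 0.24. Of 30 secretory genes 8 rose and Herpud1 fell, Ssr4 of the translocon-associated complex rising by 0.72 ± 0.09. Of 12 ASC markers 3 rose, Mzb1 by 0.43 ± 0.10, and 3 fell, among them Tnfrsf17, the receptor BCMA, by 2.12 ± 0.19 and Txndc5 by 1.60 ± 0.11. In the regulator list Sesn1 and Eif4ebp1 fell by 1.42 and 0.96 and Ddit4, an inhibitor of mTOR signalling, rose by 0.89. Malat1 stood at 0.16 ± 0.10 (edgeR adjusted p = 0.36).

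Differences that involve IgA rested on 3 libraries, and the number of members that passed depended on which barcodes were used. Igha against Ighm called 1 of 83 members, Rps18 at -0.46 ± 0.12 (edgeR adjusted p = 0.026), where 5.89% of all genes passed in either direction. Rps18 stood at 1000.4, 609 and 1089.9 CPM with IgA in female and male bone marrow and female spleen, and at 1265, 1086 and 1403 with IgM, lower in 3 of 3. The call was lost without female bone marrow, male bone marrow or female spleen. The core median of -0.17 became 0.03 with barcodes under 3% Malat1. Only female bone marrow (25) and female spleen (40) then held the 20 IgA barcodes that a sum needed. Igha against Ighg called 3 members, where 6.69% of all genes passed: Rps12 at 0.57 ± 0.14 (edgeR adjusted p = 0.013) and Rps24 at 0.43 ± 0.13 (edgeR adjusted p = 0.040) higher and Rps6kb1 at -0.96 ± 0.27 (edgeR adjusted p = 0.034) lower. The core median of this contrast was 0.10, with 55 of 73 core genes positive. Without female bone marrow it was 0.01, with 39 of 73 positive. At a leading light-chain share of at least 0.9 it was 0.38, with 22 of 85 members called higher, where 1.92% of all genes were. With barcodes under 3% Malat1 it was 0.41, with 12 of 86 called higher, where 1.37% of all genes were. That value again rested on female bone marrow and female spleen only. The contrasts share sums, and none of the 3 calls held without female spleen.

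Fitted levels of the core genes were lower in thymus than in bone marrow or spleen, but none passed the adjusted test. In female thymus all 73 core genes lay below both other libraries of that sex, and in male thymus 68 did, while Rpl38, Rps27, Rps28 and Rps29 lay above both. The model with sex and tissue as additive terms, fitted to the 6 dominant sums, had 2 residual degrees of freedom and tested 10198 genes, 89 members among them. For thymus against bone marrow 0 members passed, where 0.471% of all genes did, and 53 members (51 core) against 12.6% of all genes had an unadjusted p under 0.05. For thymus against spleen 0 passed, where 0.373% of all genes did, and 68 members (63 core) against 19.5% had an unadjusted p under 0.05. All 73 core genes had a negative log2 fold change in both contrasts, with a median of -1.12 and -1.32 and an all-gene median near 0 (-0.0016 and 0.016). DESeq2 called 0 members against bone marrow, and against spleen 61 of 76 members with an adjusted p as lower, where 16.7% of 1697 genes were.

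Rps12 had the smallest p against bone marrow. Its CPM was 2138 and 2035 for bone marrow of females and males, 2219 and 1638 for spleen, 379.8 and 1074 for thymus. Both thymus values lay below the other 4, with a log2 difference from bone marrow of -1.58 ± 0.51 (edgeR adjusted p = 0.32). Rpl12 and Rpl5 stood at -1.20 ± 0.44 and -1.21 ± 0.46 in the same contrast (edgeR adjusted p = 0.35 and 0.36). Rps27l, among the 3 members with the smallest p against spleen, stood at 772 and 480.1 in female and male spleen, 178 and 294 in thymus and 463 and 395 in bone marrow, a log2 difference from spleen of -1.35 ± 0.40 (edgeR adjusted p = 0.16). The other 2 were the pseudogenes Rpl9-ps6 (-1.93 ± 0.48) and Rpl10-ps3 (-1.35 ± 0.34). Rps24, Rps20, Rpl13 and Rpl10, among the core genes with the most UMIs, all had female thymus lowest and male thymus next, as for Rpl13 at 1010.2 and 2469.8 in thymus against 3483 to 5040.3 elsewhere.

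The 2 thymus libraries lay apart from each other, and the count of calls turned on which of them was kept. Without male thymus, a fit in which the remaining thymus library is assumed to vary like the other groups, 77 members including all 73 core genes were called lower than in bone marrow, where 7.52% of all genes were. In the same fit 80 members including all 73 core genes were called lower than in spleen, where 10.1% of all genes were, and the core medians were -2.05 and -2.22. Without female thymus 0 and 1 members were called lower and the core medians were -0.46 and -0.64. Female thymus had 83 dominant barcodes and 204034 UMIs in its sum, of which 7.34% were Malat1, and male thymus 153 barcodes and 807163 UMIs, of which 3.24% were; Malat1 was 1.58% to 2.46% in the other 4 sums. With dominant barcodes under 3% Malat1 the core medians were -0.68 against bone marrow and -0.75 against spleen, with 0 members called. Of 12 T cell markers 4 were tested, and Trbc2, a T cell receptor chain, was called higher in thymus in both contrasts (log2 fold change 9.08 and 7.10), on 11 and 4 UMIs in the female and male thymus sums and 0 to 2 in the others. Of 11 neutrophil markers 4 were tested, and S100a8, S100a9 and Ngp were called lower in thymus than in bone marrow and none against spleen. The T cell list summed to 0.00833% and 0.00211% of UMIs in female and male thymus and the neutrophil list to at most 0.00718% in any library. The part of these markers, nuclear RNA share and depth in the thymus values was not tested; with each library thinned to 204034 UMIs the medians were -0.99 and -1.05.

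Spleen against bone marrow and male against female showed no called member. Against 0.137% of all genes called, 0 of 89 members passed for spleen minus bone marrow by edgeR and 0 by DESeq2; 3 members had an unadjusted p under 0.05, against 5.71% of all genes. The core median was 0.19, and it was -0.38 without female spleen, -0.08 without male bone marrow and -0.21 over all kept barcodes. For male minus female 0 of 89 members passed by edgeR, against 0.196% of all genes, and 0 by DESeq2; 1 member had an unadjusted p under 0.05, against 6.70% of all genes. The core median was 0.13, and it was -0.34 without female thymus, -0.35 without male thymus and -0.27 over all kept barcodes. The direction of the core genes in both contrasts thus turned when 1 library was left out.

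**Figure D4:**
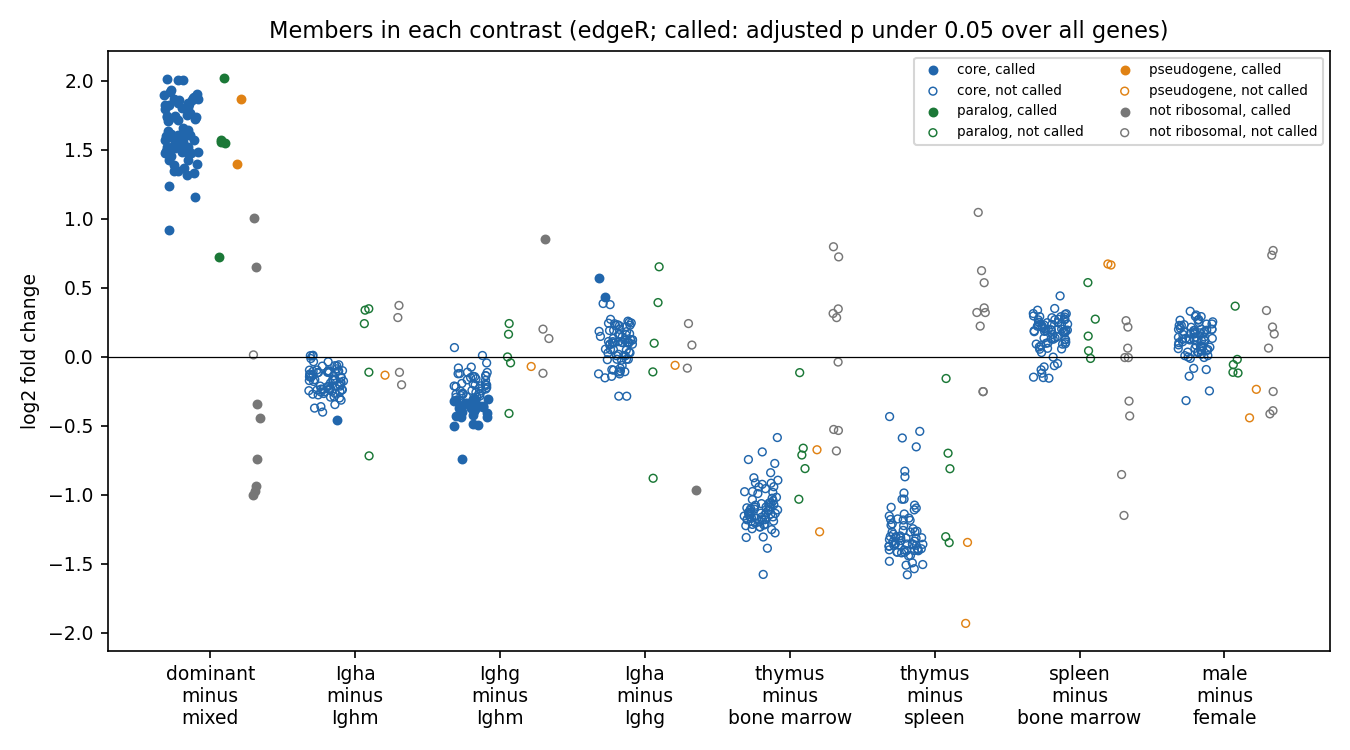
Log2 fold changes (y axis) of the members tested in each of 8 contrasts (x axis); blue points are core genes, green paralogs, orange pseudogenes and grey genes that are not ribosomal, filled where the edgeR adjusted p over all genes is under 0.05. All 73 core genes are filled and positive for dominant minus mixed, 29 are filled and negative for Ighg minus Ighm, and all are open and negative for both thymus contrasts.

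The make-up of the ribosomal protein mRNA pool varied little for most genes and most for Rps29, Rps28, Rps27 and Rpl38. The coefficient of variation of a gene's share of core UMIs over the 6 dominant sums ran from 2.02% to 29.6%, with a median of 7.11%. Each library weighed equally, though only 54 of the 73 core genes had over 100 UMIs in every library. In female thymus Rps12 had 100 UMIs and Rpl23a 26. The part of counting noise in this ranking was not tested. The steadiest were Rpl31 (2.02%), Rpl36a (3.49%), Rpl21 (3.74%), Rpl24 (3.86%) and Rps6 (3.95%), the small-subunit protein that the S6 kinases phosphorylate. The most variable were Rps29 (29.6%), Rps28 (25.5%), Rps27 (22.8%), Rpl38 (19.3%) and Rps12 (17.7%).

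Rps29 (chromosome 12, 69157722 to 69159186, minus strand) held 2.05% and 1.16% of core UMIs for bone marrow of females and males, 1.43% and 1.15% for spleen, 2.28% and 2.05% for thymus. Rps28 held 1.51% and 0.894%, 1.06% and 0.885%, and 1.53% and 1.48% in that order, and Rpl38 1.83% and 1.40%, 1.35% and 1.35%, and 1.98% and 2.01%. Female bone marrow and both thymus libraries were thus high for these genes, and male bone marrow and both spleen libraries low. Within each sex, thymus was highest and spleen lowest for Rps29, Rps28 and Rpl38. Females were above males in every tissue for Rps29 and Rps28, but for Rpl38 in bone marrow only. With 1 library per sex and tissue, these orders were not tested. Rps12 did not follow, with 1.29% and 1.47% for bone marrow, 1.12% and 1.17% for spleen, 0.864% and 1.07% for thymus.

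Together Rps29, Rps28, Rps27, Rpl38 and Rps21 held 8.19% and 5.46% of core UMIs for bone marrow of females and males, 5.97% and 5.27% for spleen, 8.57% and 8.32% for thymus. The same sums in barcodes with a share of 10% or more were 8.27% and 5.51%, 5.97% and 5.29%, and 9.64% and 8.47%, so the order was the same in barcodes rich in ribosomal protein mRNA. This group was put together after its values were seen and was given no test. Rps29, Rps28 and Rpl38 have coding lengths of 168, 207 and 210 bases, and the median was 210 bases over the 5 most variable genes against 471 over the 5 steadiest and 468 over all core genes. Longer genes were also among the 10 most variable, Rps19 with 636 and Rpl6 with 888 bases. Over the 73 core genes the rank correlation of variation with coding length was -0.20.

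**Figure D5:**
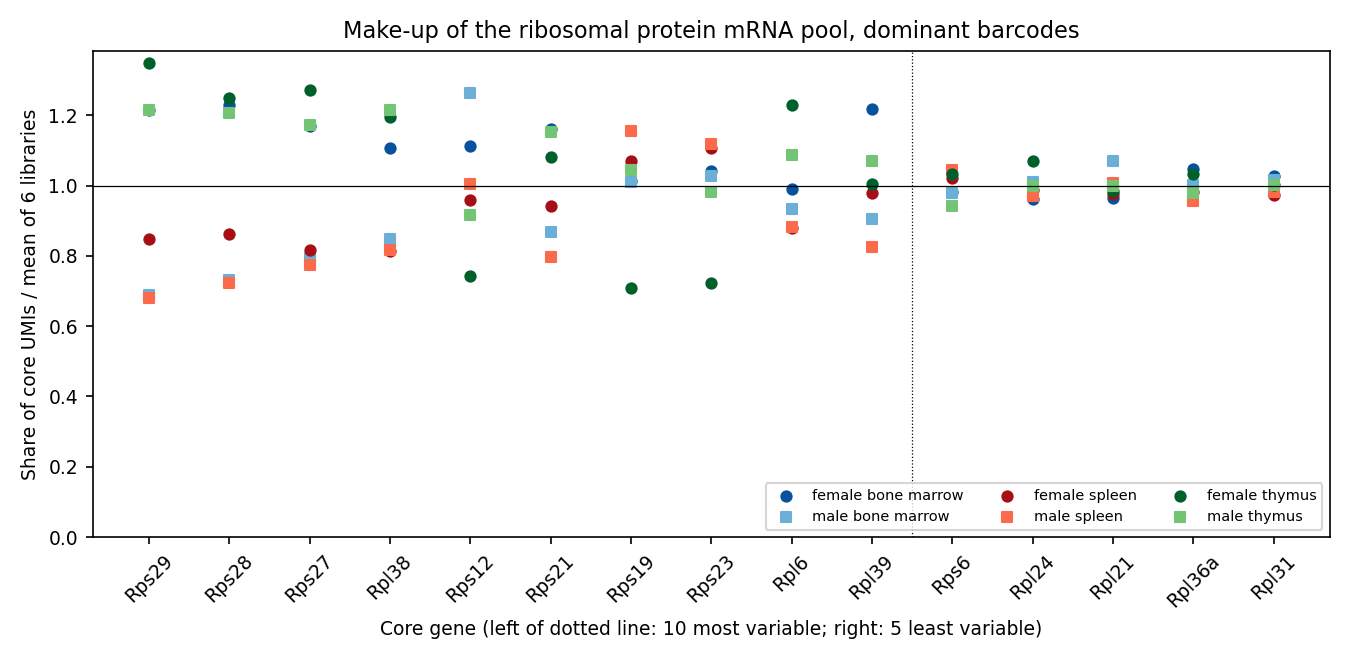
Share of core UMIs in each library divided by the gene's mean over the 6 libraries (y axis) for the 10 most variable (left of the dotted line) and the 5 steadiest core genes (x axis), dominant barcodes. For Rps29, Rps28, Rps27 and Rpl38 female bone marrow and both thymus libraries lie above 1 and the other 3 below, and for Rpl31 all 6 lie close to 1.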

How the data were processed

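Per the labels' protocols, sorted ASCs were run as 1 well per sex and organ on the 10x Genomics 5′ v1.1 chemistry. The deposited matrices hold raw UMI counts per gene and barcode, without normalization by the authors as far as the values show; Cell Ranger 6.0.2, mm10 and GRCm38 come from the submitters' processing notes. The VDJ tables deposited by the authors were used for their barcodes only. No correction for free RNA and no doublet caller was applied.

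Counts of dominant barcodes, and of light-chain or heavy-chain classes with at least 20 barcodes, were summed per library. The 395 immunoglobulin genes were left out, and sums were tested with edgeR 4.0.16 in R 4.3.3 (filterByExpr, TMM, quasi-likelihood F-test, Benjamini-Hochberg over all genes at 0.05) and, as an alternative, DESeq2 1.42.0. The model code was tested on simulated data. Values in CPM are UMIs of a sum scaled with TMM. A heavy constant class needed 0.8 of at least 20 heavy constant UMIs. Tissue and sex had additive terms; class and isotype fits had library as a block (5 and 6 residual degrees of freedom).

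The members, lists and tests were chosen with earlier results of these data known. For each contrast the text names up to 5 members per direction with the smallest p among those called, or 3 where none was called, the 5 core genes with the most UMIs, the 5 most and least variable ones, paralogs with their partners, the core genes outside the rule, and up to 4 genes per other list. Lists of erythroid, dendritic, stress and small nucleolar host genes were also computed: erythroid markers held at most 0.00167% and dendritic markers at most 0.0527% of dominant UMIs, 3 of 8 small nucleolar host genes rose and 1 fell in dominant barcodes, and 1 of 9 stress genes rose and 5 fell. Positions are from GENCODE vM21 and start windows from RefSeq, both matched by symbol or identifier. Protein sequences were not used here. Some genes that the rule for named genes would give are not reported here.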

Additional observations from a re-analysis of the deposited data

Results flagged for a closer look

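The difference between the sexes in the ribosomal protein share of dominant barcodes ran in opposite directions by tissue. With all UMIs summed per library, male minus female was -1.73 percentage points in bone marrow (13.7% against 15.5%) and -2.53 in spleen (13.8% against 16.3%), and 5.56 in thymus (11.4% against 5.88%). Each value compares 1 library with 1 library, so the difference between tissues was not tested. The female thymus value rests on 83 barcodes, of which 14 had a share of 10% or more, and the male one on 153, of which 58 did.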

How the results depend on the processing

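No fit by replicate number was made, because the labels give none; the sex term compares tissues within a sex, and the class and isotype fits pair the sums of a library through its block. Without the sex term 0 members passed in the tissue contrasts. For dominant minus mixed, 82 members were called higher under each of 13 alternatives, where 3106 to 3891 of the 9894 to 18565 genes tested were. The mean mixed share of 4.80% was 6.45% with Malat1 and ribosomal RNA loci left out of the denominator and 5.75% with the latter alone left out, alternatives chosen after seeing the data, and 4.34% to 5.27% under the others, libraries left out aside. The isotype counts depended on the settings, and the cause was not tested. Those under 3% Malat1 held IgG and IgA sums of female bone marrow and female spleen only. Members lower in Igha than Ighm (1) were 3 with DESeq2, 10 without a filter, 0 at a leading light-chain share of at least 0.9, 2 under 10% mt- share, 6 at 1000 UMIs or more, 0 under 3% Malat1 (chosen after seeing the data, here and below) and 0 to 3 with a library left out. Over all genes 88 of the 5158 fitted were lower with DESeq2 and 305 of 15812 without a filter. Under 10% mt- share 142 of 5072 genes were lower, and 150 of 5125 at 1000 UMIs. Members lower in Ighg than Ighm (29) were 50 at 0.9, 55 under 10% mt- share, 55 at 1000 UMIs, 10 under 3% Malat1 and 5 to 56 with a library left out. Over all genes 312 of 5158 were lower in the main fit, and 244 of 6405 at 0.9. Under 10% mt- share 338 of 5072 genes were lower, at 1000 UMIs 317 of 5125 and under 3% Malat1 178 of 8204. Members higher in Igha than Ighg (2) were 1 without a filter, 22 at 0.9, 4 under 10% mt- share, 4 at 1000 UMIs, 12 under 3% Malat1 and 0 to 4 with a library left out, and the 1 lower was 0 at 0.9, under 10% mt- share and under 3% Malat1, and 0 to 1 with a library left out. Over all genes 180 of 15812 were higher in Igha without a filter, 123 of 6405 at 0.9 and 112 of 8204 under 3% Malat1. Under 10% mt- share 164 of 5072 genes were higher, and 162 of 5125 at 1000 UMIs. For thymus against bone marrow the count of lower members (0) was 1 over all kept barcodes and 0 to 77 with a library left out. Against spleen it was 61 with DESeq2, 10 without a filter and 0 to 80 with a library left out, and the count of higher members was 0 to 1. For spleen minus bone marrow the higher members (0) were 1 under 3% Malat1 and 0 to 2 with a library left out, the lower ones 0 to 1, and for male minus female the lower ones 0 to 2. Over all main results, 239 of 289 alternatives stayed close to the main value and 50 moved. Close means within a fixed factor for a count of members and within the SD over libraries for a mean share. For example, 41 members lower in Ighg than Ighm without a filter counted as close to 29. Of 588 alternatives for single genes and core medians, 530 kept the gene's call or lay within the median SE of the core genes. None of the genes with such alternatives changed sign, but core medians did: spleen minus bone marrow (0.19) reached -0.38, male minus female (0.13) -0.35 and Igha minus Ighm (-0.17) 0.03. The thymus sums are the smallest, at 204034 and 807163 UMIs. Beside the tissue counts above, 224 of 15997 genes were lower in thymus than in spleen without a filter. With DESeq2 284 of 1697 genes were lower in that contrast. Over all kept barcodes 129 of 12271 genes were lower in thymus than in bone marrow. Under 3% Malat1 87 of 9513 genes were higher in spleen than in bone marrow.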

Other observations

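The ribosomal protein share was also set against whether a B cell receptor was assembled for a barcode, and sums and medians gave opposite orders in most libraries. Each gene expression library was joined to the VDJ table that shared most of its barcodes, not to the table with its label, a choice made after the labels were seen to disagree. The summed share of kept barcodes with and without an assembled receptor was 12.7% and 6.03% in female bone marrow, 10.3% and 6.62% in male bone marrow, 14.8% and 9.42% in female spleen, 6.96% and 5.23% in male spleen, 4.85% and 4.42% in female thymus, and 7.40% and 5.15% in male thymus. The sum was higher with a receptor in 6 of 6 libraries. The median over barcodes was lower with a receptor in 5 of 6, at 3.76% against 5.22% and 2.54% against 3.10% in bone marrow of females and males, 3.26% against 6.03% in male spleen, and 2.85% against 4.78% and 2.12% against 3.13% in thymus, and higher in female spleen (11.9% against 7.68%). Barcodes with a receptor were deeper, with a median of 1211 to 7006.5 UMIs against 778 to 1593. Within mixed barcodes the median share was lower with a receptor in 6 of 6, for example 3.54% against 6.15% in male spleen. Within dominant barcodes it was higher with a receptor in female bone marrow (13.0% against 10.1%), male bone marrow (12.5% against 12.2%) and male spleen (12.4% against 11.0%) and lower in female spleen (14.3% against 15.1%) and male thymus (3.20% against 9.78%, the latter over 5 barcodes).

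By their medians, barcodes with a leading light-chain share between 0.5 and 0.8 did not lie between the other classes. Their median ribosomal protein share was 3.14% and 1.98% for bone marrow of females and males, 4.81% and 2.75% for spleen, 2.10% and 1.77% for thymus. These medians lay below the mixed ones in 6 of 6 libraries and below the dominant ones in 6 of 6, by the least in female thymus at 2.10% against 2.11%. With all UMIs summed, female spleen was the exception, at 10.8% between 7.22% in mixed and 16.3% in dominant barcodes; the other 5 sums, 2.91% to 4.92%, lay below the mixed ones. Their Malat1 share was 4.78% to 11.1%.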
